A study of Mus musculus with 8 samples.

Results

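Ccn2, Postn and Adamts1 encode secreted proteins of the extracellular matrix, and all 3 had higher transcript signals in Nfkbiz knockout keratinocytes than in wild-type keratinocytes when both carried the v-rasHa oncogene. The 3 genes were found by symbol among 9294 genes on oligonucleotide arrays, and each was represented by 1 probe set naming no other gene: 1416953_at for Ccn2, 1423606_at for Postn and 1450716_at for Adamts1. They were picked from the results of this same comparison, so their differences are given as a description, with no test.

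The cells were mouse keratinocytes labelled as strain C57BL/6 and kept without starvation. The 4 wild-type RAS arrays and the 4 knockout RAS arrays were labelled as biological replicates, and cells of both groups had been transduced with v-rasHa, a viral activated form of the Hras oncogene, 3 days before. The knockout group lacked Nfkbiz, the gene of the nuclear NF-kB cofactor IkBz, and no labelled group was without the oncogene. Neither the age of the mice, the number of mice per culture nor the construction of the knockout allele is given in the sources used here. Nfkbiz itself was not analysed here, so these values do not check the genotype. The log2 signals of the 8 arrays had medians of 4.49 to 4.57 and lower quartiles of 3.33 to 3.39. Differences were tested gene by gene in limma, a linear model with moderated variances, and called at a Benjamini-Hochberg adjusted p under 0.05. The verbs rose and fell are kept for called genes. Calls numbered 827 (8.9%), 415 (4.47%) higher and 412 (4.43%) lower in the knockout. Centring the arrays on their medians turned this split into 482 higher and 314 lower.

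Ccn2, formerly Ctgf, encodes connective tissue growth factor, a matricellular protein that binds integrins, proteoglycans and growth factors rather than serving as a structural fibre. Its gene is a common readout of TGF-beta and SMAD signalling and of the YAP and TAZ coactivators, which act through TEAD factors. Postn encodes periostin, a fasciclin-domain protein that binds collagen, tenascin-C and integrins and is made mainly by fibroblasts in skin, with TGF-beta and interleukin-13 among its inducers. Adamts1 encodes a secreted metalloproteinase with thrombospondin repeats that cleaves aggrecan and versican.

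The promoters of Postn and Adamts1 are shown because the genes were higher in the same arrays. RefSeq windows of build GRCm38.p6 were used, and Ccn2 had no entry. The 250 bases before the annotated start are written 5′ to 3′ on the strand of the gene, with every motif found in capitals. The Adamts1 window is chr16:85803114-85803363 on the minus strand, and the second of the Postn windows is chr3:54360857-54361106 on the plus strand.
Adamts1: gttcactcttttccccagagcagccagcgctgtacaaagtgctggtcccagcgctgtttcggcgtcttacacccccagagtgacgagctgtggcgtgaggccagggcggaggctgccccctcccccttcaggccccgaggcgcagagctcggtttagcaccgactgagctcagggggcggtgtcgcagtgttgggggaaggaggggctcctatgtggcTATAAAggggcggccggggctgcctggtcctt
Postn: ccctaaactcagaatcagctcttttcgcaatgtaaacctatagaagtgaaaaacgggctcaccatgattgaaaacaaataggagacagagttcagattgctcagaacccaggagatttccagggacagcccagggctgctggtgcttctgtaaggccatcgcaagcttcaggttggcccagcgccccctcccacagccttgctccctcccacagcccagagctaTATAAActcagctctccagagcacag

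The capitals mark TATAAA, the letters of a TATA box, at -32 to -27 from the start of Adamts1 and at -26 to -21 from this start of Postn. The first Postn window, not printed here, held no TATAAA on either strand. TATAAA was found on either strand in 12.4% of 32851 RefSeq promoter windows of that length. No match to the other motifs was found in these windows or in the first Postn window: GGAATG for TEAD, GTCTAGAC for SMAD, TGANTCA for AP-1, CCAAT for the CCAAT box, and the kB and CArG motifs. Those motifs were found on either strand in 12.6%, 0.167%, 6.75%, 33.85%, 7.25% and 1.47% of all windows, in the same order, and a CArG box can overlap a TATA box. A match is a description of letters and not of binding, and only these stretches were searched.

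Ccn2 was higher in every knockout array than in any wild-type array. Its log2 signal was 11.51, 11.57, 11.56 and 11.58 in wild-type RAS replicates 1 to 4. In the knockout it was 12.45, 12.46, 12.46 and 12.31. The wild-type values lay close together, 3 knockout values were nearly equal, and knockout replicate 4 was the lowest of its group, yet the groups stood 0.73 apart at their nearest arrays. The means were 11.55 ± 0.03 and 12.42 ± 0.07 (SD, n = 4 per group), a log2 fold change of 0.86 ± 0.05 (SE), or 1.82-fold. Over all genes, 15.9% had groups that did not overlap, and 7.91% did so with the knockout higher. These shares are given as background only, since the genes were chosen from this contrast.

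Postn had the largest difference of the 3 genes. Its log2 signal was 5.48, 5.25, 5.10 and 5.44 in wild-type replicates 1 to 4 and 6.90, 6.74, 6.85 and 6.65 in knockout replicates 1 to 4. The wild-type arrays spread over 0.39 and the knockout arrays over 0.26, and the groups were 1.16 apart at their nearest arrays. The means were 5.32 ± 0.18 and 6.78 ± 0.12 (SD, n = 4 per group), with a log2 fold change of 1.47 ± 0.09 (SE), or 2.76-fold. All 8 values lay above the array medians, which matters because no detection calls were used here to separate low signals from background.

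Adamts1 had the smallest difference, also without overlap. Its log2 signal was 7.42, 7.59, 7.57 and 7.65 in wild-type replicates 1 to 4. In knockout replicates 1 to 4 it was 8.19, 8.22, 8.27 and 8.25. Wild-type replicate 1 was the lowest array, and the knockout arrays lay within 0.08 of each other. The nearest arrays of the groups were 0.54 apart, and the means were 7.56 ± 0.10 and 8.23 ± 0.04 (SD, n = 4 per group), a log2 fold change of 0.68 ± 0.06 (SE), or 1.60-fold. Ordered by log2 fold change among the 9294 genes, Postn ranked 7, Ccn2 ranked 25 and Adamts1 ranked 55 from the highest.

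**Figure D1:**
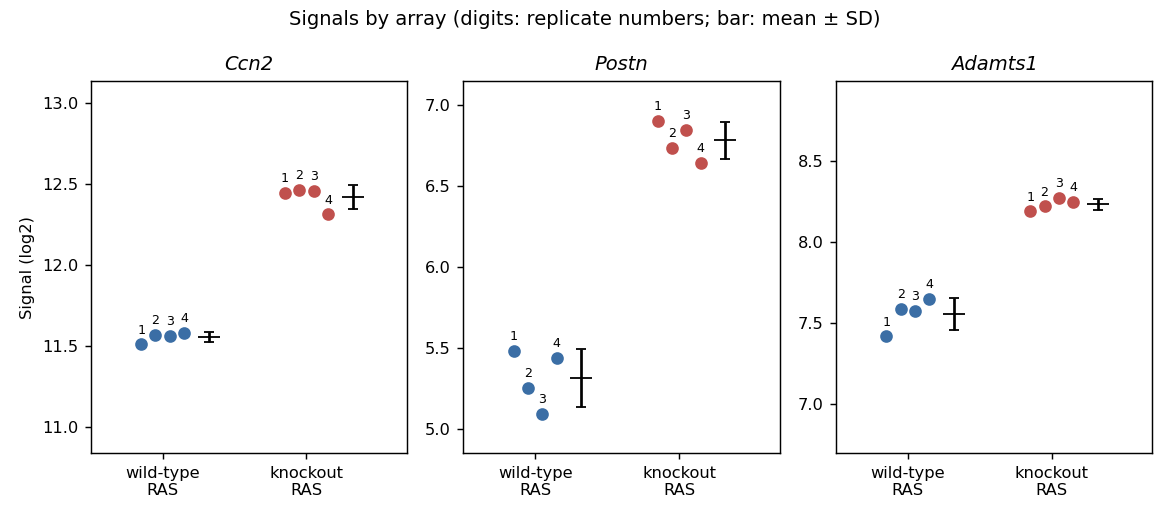
Log2 signal of Ccn2, Postn and Adamts1 in each of the 4 wild-type RAS and 4 knockout RAS arrays, with replicate numbers above the points, bars for the mean ± SD and the same axis length in each panel. In each gene all 4 knockout arrays lie above all 4 wild-type arrays, with gaps of 0.73, 1.16 and 0.54.

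Within a genotype, the 3 genes did not share 1 extreme array. Knockout replicate 4 was the lowest knockout array for Ccn2, at 0.11 below its group mean, and for Postn, at 0.14 below. For Adamts1 the same array lay 0.02 above its group mean. Wild-type replicate 1 was 0.14 below its group mean for Adamts1 and 0.05 below for Ccn2, but 0.16 above for Postn. The widest deviation of any array was that of Postn in wild-type replicate 3, at 0.22 below its group mean. A relation between these deviations was not tested.

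Few relatives of Ccn2 were measured. Of the 5 other CCN genes, Ccn5 was the 1 measured, and its values overlapped between groups. It had 4.76 ± 0.07 in wild-type and 4.72 ± 0.08 in knockout arrays (SD, n = 4 per group), with a log2 fold change of -0.04 ± 0.06 (SE; limma adjusted p = 0.796). Ccn5 encodes a CCN protein that lacks the C-terminal module of the others. Its signal lay near the array medians, where a low transcript could not be told from background.

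Among the other ADAMTS and ADAMTS-like genes, 1 rose and 1 fell, or 22.2% of those measured against 8.9% called over all genes. Of 24 listed beside Adamts1, 9 were measured, with a median log2 fold change of 0.05 against -0.01 over all 9294 genes. Adamts20, a proteoglycan-cleaving protease known from pigment patterning of mouse skin, rose, with means of 2.81 ± 0.09 in wild-type and 3.42 ± 0.18 in knockout arrays (SD, n = 4 per group; limma adjusted p = 0.00108). Its wild-type values of 2.71, 2.75, 2.93 and 2.84 and 2 of its knockout values lay under the lower quartiles of the arrays, so the size of this rise is uncertain. Adamts7, a protease that cleaves cartilage oligomeric matrix protein, fell by 0.20 ± 0.05 (SE; limma adjusted p = 0.0322). That call was lost without any 1 array other than wild-type replicate 4, with adjusted p up to 0.0994, and also with arrays centred on their median. The remaining 7 did not pass. Adamtsl4, which encodes a fibrillin-binding protein without protease activity, had 0.22 ± 0.09 (limma adjusted p = 0.179). Adamts8, Adamts12, Adamts15, Adamtsl2, Adamtsl3 and Papln had log2 fold changes of -0.04 to 0.10. Adamts12, with means of 2.47 in wild-type and 2.43 in knockout arrays, lay under the lower quartiles of the arrays. Signals of Adamts15, Adamtsl3 and Papln lay under the array medians and those of Adamts8 near them. A low transcript could not be told from background there, so a missing call does not show an unchanged transcript.

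Postn belongs to the fasciclin family and to the wider group of matricellular genes, of which 12 others among 25 were measured. Stab1, the gene of the fasciclin-domain scavenger receptor stabilin-1, rose, with means of 6.21 ± 0.05 and 6.74 ± 0.07 (SD, n = 4 per group; limma adjusted p = 9.42e-05). Its wild-type values were 6.23, 6.13, 6.22 and 6.25 and its knockout values 6.73, 6.66, 6.83 and 6.75. Both groups were tight and did not overlap. Tnn, the gene of tenascin-N, fell from 6.96 ± 0.10 to 6.50 ± 0.12 (limma adjusted p = 0.00192). The other 10 genes did not pass, among them Stab2 with -0.02 and Comp, the cartilage oligomeric matrix protein gene, with 0.01. The median over the 12 was -0.01, the same to 2 decimals as that of all genes. Signals of Comp, Fbln7, Sparcl1, Stab2, Thbs3, Thbs4 and Tnr lay under the array medians, where a low transcript could not be told from background. The median and the missing calls of these genes therefore do not show unchanged transcripts. Limma called 16.7% of the 12, against 8.9% over all genes.

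Substrates of ADAMTS1, hyaluronan genes and inhibitors of metalloproteinases formed another list, of which 7 of 22 were measured. Vcan, the gene of the substrate versican, and the inhibitor gene Timp3 were not analysed here. Limma called 2 of the 7 lower and none higher, or 28.6% against 8.9% called over all genes. The median was -0.11, and at an unadjusted p under 0.05 there were 3 lower and none higher. Reck, a membrane-anchored inhibitor of matrix metalloproteinases, fell by 0.38 ± 0.08 (SE; limma adjusted p = 0.0116). Has3, a hyaluronan synthase gene, fell by 0.42 ± 0.08 (limma adjusted p = 0.00896), from 3.67 to a mean of 3.25 under the lower quartiles of the arrays. Acan, the gene of the ADAMTS1 substrate aggrecan, had -0.11 ± 0.07 (limma adjusted p = 0.454), and the inhibitor gene Timp1 had 8.13 ± 0.08 and 8.11 ± 0.15 (SD, n = 4 per group; limma adjusted p = 0.911). Of the collagens, fibronectin, integrins and other partners and receptors listed, 1 of 24 was measured, the integrin gene Itgam, with -0.01 ± 0.10 (SE; limma adjusted p = 0.971). Its signals of 2.64 to 3.08 lay under the lower quartiles of the arrays, where a low transcript could not be told from background.

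**Figure D2:**
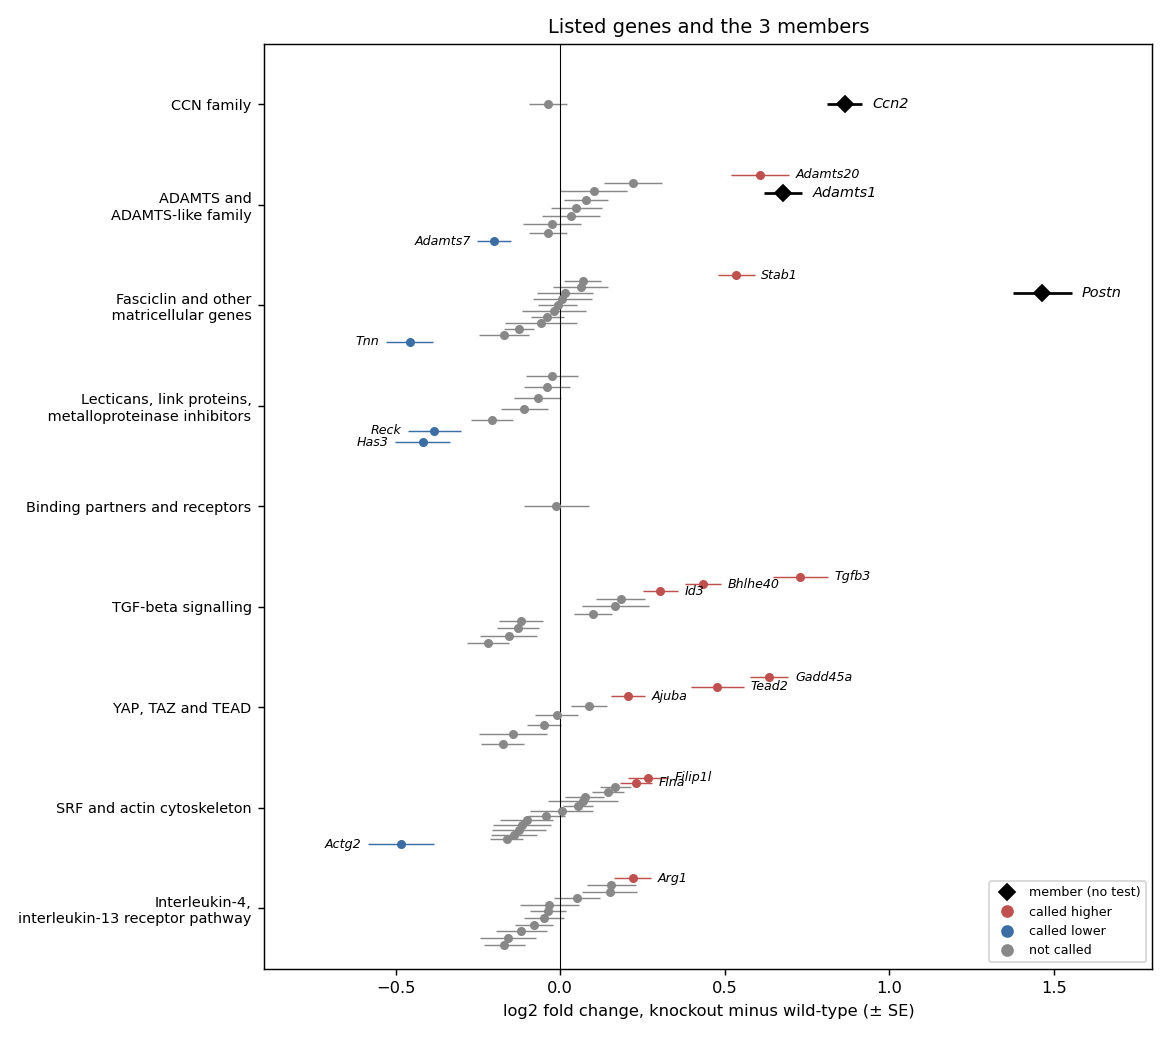
Log2 fold change, knockout minus wild-type, with its SE for every measured gene of the 9 lists and for Ccn2, Adamts1 and Postn (black diamonds, no test). Red and blue points passed a limma adjusted p of 0.05 as higher or lower and are named, and grey points did not pass. Postn at 1.47 and Ccn2 at 0.86 lie to the right of every listed gene, but they were picked from this contrast, so their place is a description only.

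Genes of TGF-beta signalling that passed were all higher in the knockout, 3 of 10 measured among 29 listed, or 30% against 8.9% called over all genes. No member was called lower in limma, and at an unadjusted p under 0.05 there were 4 higher and 1 lower. The list median was 0.13. Tgfb3, the gene of the ligand TGF-beta 3, rose from 5.27 ± 0.14 to 6.00 ± 0.13 (SD, n = 4 per group), a log2 fold change of 0.73 ± 0.08 (SE; limma adjusted p = 0.000217). Its wild-type arrays read 5.07, 5.38, 5.33 and 5.31 and its knockout arrays 5.93, 6.18, 6.01 and 5.89. Every knockout array was thus higher than every wild-type array, as for Ccn2, Postn and Adamts1.

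The ligand gene Tgfb1 went the other way without passing, with -0.22 ± 0.06 (SE; limma adjusted p = 0.0572). It was called lower with repeated quantile normalization, with the lowest 25% of genes left out and with an intensity trend, at adjusted p of 0.0271, 0.0393 and 0.0354. Bhlhe40, a transcriptional repressor gene, rose by 0.43 ± 0.05 (SE; limma adjusted p = 0.000425). Id3, an inhibitor of basic helix-loop-helix factors, rose by 0.30 ± 0.05 (limma adjusted p = 0.00393). Id1, its relative, had -0.13, Smad6, an inhibitory SMAD, had 0.18, and Tgif1, a corepressor of SMADs, had 0.10, and none of the 3 passed.

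In the list of YAP, TAZ and TEAD genes, 3 of 8 measured members rose and none fell in limma, while 36 were listed. That is 37.5% called, against 8.9% over all genes. At an unadjusted p under 0.05 there were 3 higher and 1 lower, and the median of the 8 was 0.04. Gadd45a, a stress gene counted among YAP targets, rose, with means of 8.21 ± 0.09 and 8.85 ± 0.05 (SD, n = 4 per group; limma adjusted p = 4.51e-05). Tead2, a DNA-binding partner of YAP and TAZ, rose by 0.48 ± 0.08 (SE; limma adjusted p = 0.00319). Ajuba, a LIM protein that restrains the kinases acting on YAP, rose by 0.21 ± 0.05 (limma adjusted p = 0.0324), a call lost without any 1 array other than wild-type replicate 4 and knockout replicate 2.

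Other measured YAP targets of that list were not called. Amotl2, an angiomotin-like gene and YAP target, had 0.09 ± 0.05 (SE; limma adjusted p = 0.415). F3, the tissue factor gene, had -0.17 ± 0.07 (limma adjusted p = 0.144), and the kinase gene Nuak2 had -0.01 ± 0.07 (limma adjusted p = 0.957). The targets most often read with Ccn2, Ccn1 and Ankrd1, and the coactivator gene Yap1 were not analysed here.

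Of 15 measured genes of the SRF factor and the actin cytoskeleton among 28 listed, 2 rose and 1 fell, with a median of 0.00. That is 20% called, against 8.9% over all genes. Flna, the gene of the actin crosslinker filamin A, rose by 0.23 ± 0.05 (SE; limma adjusted p = 0.012). Filip1l, whose protein is related to a filamin-interacting protein, rose by 0.27 ± 0.06 (limma adjusted p = 0.0183), a call lost without wild-type replicate 4 or knockout replicate 3. Without either of those arrays 1 member of the list rose in place of 2. Actg2, the smooth muscle gamma actin gene, fell by 0.48 ± 0.10 (limma adjusted p = 0.0118), and Tagln, a common SRF target, had -0.14 ± 0.07 (limma adjusted p = 0.293).

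Interleukin-4 and interleukin-13 induce Postn in other settings, and 11 of 16 genes listed for their receptor pathway were measured. Arg1, the arginase gene, rose by 0.22 ± 0.06 (SE; limma adjusted p = 0.0356), and limma called no other member. That is 9.09% called, near the 8.9% over all genes. The call of Arg1 was lost without any 1 array other than wild-type replicate 3. The cytokine genes Il4 and Il13 had means of 3.50 to 3.97, under the array medians, with log2 fold changes of 0.15 and -0.05. Il13ra2, the decoy receptor gene, had -0.16 ± 0.09 (limma adjusted p = 0.328). At an unadjusted p under 0.05, 1 member was higher and 1 lower.

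The position of each gene was compared with that of its neighbours, using a RefSeq gene table for order only. Around each gene, the 5 nearest measured genes on either side were taken. None of the 10 neighbours of Postn on chromosome 3 or of the 10 of Adamts1 on chromosome 16 was called in limma, against 8.9% called over all genes. Their log2 fold changes lay between -0.17 and 0.11 around Postn and between -0.10 and 0.20 around Adamts1. Beside Adamts1, Gm10791, Mir155hg, A730009L09Rik, Gm32461, Map3k7cl and Grik1 had group means of 2.15 to 3.00, under the lower quartiles of the arrays. Frem2, Sertm1 and Ccna1 beside Postn lay under them too, with group means of 2.30 to 2.97. A low transcript could not be told from background there, so a missing call in these genes does not show an unchanged transcript. At an unadjusted p under 0.05, 1 neighbour of Postn, Lhfp with -0.17 ± 0.05 (SE), and none of Adamts1 passed. Lhfp was called lower with the lowest 25% of genes left out and with an intensity trend (limma adjusted p = 0.0304 and 0.00873). Of the 10 neighbours of Ccn2 on chromosome 10, Arg1 was the 1 called, while the adjacent measured genes Moxd1, a monooxygenase-like gene, and Med23, a Mediator subunit gene, had -0.08 ± 0.05 and 0.12 ± 0.07 (limma adjusted p = 0.413 and 0.375). All 30 neighbours had smaller log2 fold changes than the gene they flank, which was likely from the start because the 3 genes were picked from this contrast.

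Adamts1 lies on chromosome 16, as does the deleted gene Nfkbiz, with 96 protein-coding genes between them in that table. Of these, 21 were measured, 3 rose and 3 fell, or 28.6% called against 8.9% over all genes, and the median log2 fold change was 0.00. The 6 are named after their values were seen. Gm6958, a predicted gene, rose by 0.56 ± 0.07 (SE), Gbe1, the glycogen branching enzyme gene, by 0.29 ± 0.06 and Filip1l as above. Tmem45a, a transmembrane protein gene of keratinocytes, fell by 1.95 ± 0.10, Stx19, a syntaxin gene, by 0.44 ± 0.07 and Tfg, a gene of secretory transport, by 0.26 ± 0.05. Whether linkage to the deleted allele has a part in the Adamts1 difference was not tested.

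**Figure D3:**
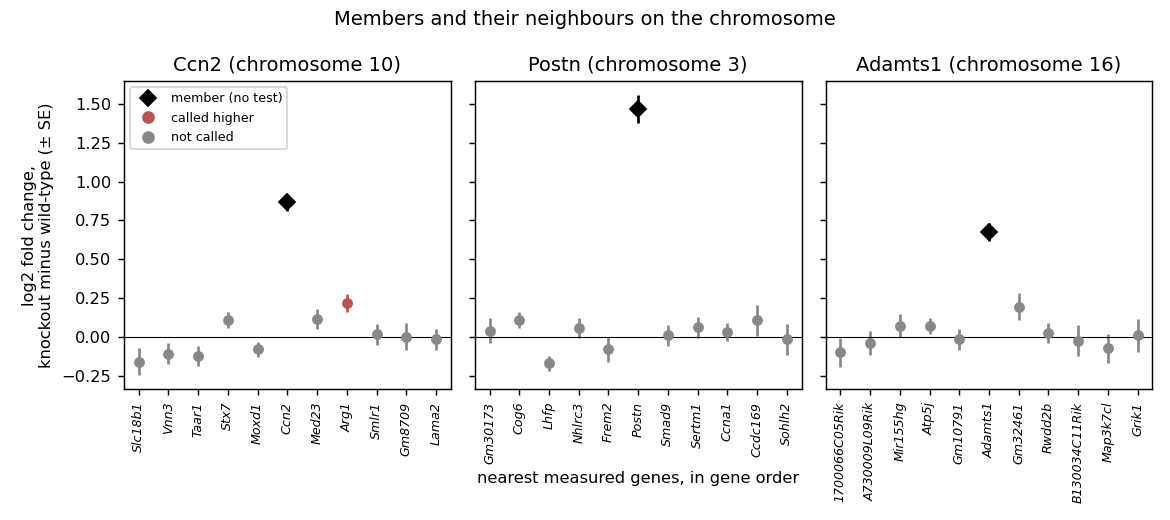
Log2 fold change, knockout minus wild-type, with its SE for Ccn2, Postn and Adamts1 (black diamonds, no test) and for the 5 nearest measured genes on each side in gene order. Of the 30 neighbours, 1, Arg1 beside Ccn2 (red), passed a limma adjusted p of 0.05, and all 30 lie between -0.17 and 0.22. Several neighbours had signals under the lower quartiles of the arrays, where a low transcript could not be told from background.

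The genes with the nearest patterns were found by the root-mean-square difference of log2 signals over the 8 arrays, each gene centred on its mean. Nearest to Ccn2 were Wnt10a, a Wnt ligand gene of skin appendages, with a difference of 0.053, the efflux transporter gene Abcg2 with 0.059, Ccdc68 with 0.062, the kinase gene Nuak1 with 0.074 and Ctla2b with 0.081. Their log2 fold changes were 0.78 to 0.83 against 0.86 for Ccn2. Wnt10a read 8.91, 8.90, 8.87 and 8.88 in wild-type and 9.72, 9.67, 9.72 and 9.59 in knockout arrays, so it shared with Ccn2 both the tight wild-type group and the low knockout replicate 4.

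Nearest to Postn were Cdkn2a, the gene of p16 and p19ARF, with a difference of 0.131, Plscr2 with 0.135, the neuropeptide gene Calcb with 0.154, Efhd1 with 0.178 and the serpin gene Serpinb6b with 0.193. These distances exceeded those of Ccn2, and the log2 fold changes ran from 1.18 in Efhd1 to 1.69 in Serpinb6b. Nearest to Adamts1 were Parp9, an interferon-inducible gene of ADP-ribosylation, with 0.049, Irs1, the insulin receptor substrate gene, with 0.056, Gadd45g with 0.067, Tex15 with 0.070 and Ifih1, the gene of the viral RNA sensor MDA5, with 0.071. The 3 sets of nearest genes had no member in common. Likeness here is mainly the size of the difference between genotypes, and these genes were picked for it, so no test is given.

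**Figure D4:**
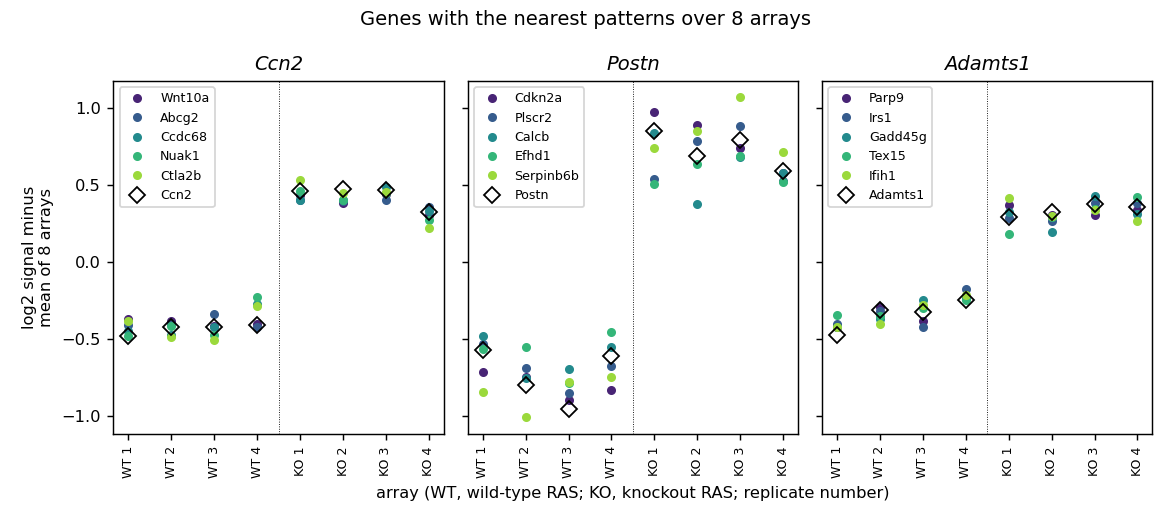
Log2 signal of each gene minus its mean over the 8 arrays, for Ccn2, Postn and Adamts1 (open diamonds) and the 5 genes with the smallest root-mean-square difference from each (coloured points), by array. The points of the neighbours of Ccn2 and Adamts1, at 0.049 to 0.081, lie closer to the diamonds than those of Postn, at 0.131 to 0.193.

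Postn is often counted as a fibroblast gene, and a keratinocyte culture can hold other cells, so markers of those cells were set beside it. Among fibroblast markers, 8 of 17 listed were measured. Limma called 6 lower and none higher, or 75% against 8.9% called and 4.43% called lower over all genes, and at an unadjusted p under 0.05 there were 6 lower and none higher. Their median log2 fold change was -0.55, and their summed signal lay at 10.89 to 10.97 on the log2 scale in wild-type and 10.59 to 10.70 in knockout arrays. Twist2, a transcription factor gene of dermal fibroblasts, fell by 1.02 ± 0.06 (SE), the decorin gene Dcn by 0.97 ± 0.08, the dermatopontin gene Dpt by 0.85 ± 0.07, and Thy1 by 0.61 ± 0.08. The collagen gene Col6a1 and the lumican gene Lum fell too, with log2 fold changes of -0.50 ± 0.06 and -0.48 ± 0.09 (SE). S100a4 and Fap, with log2 fold changes of 0.06 and 0.10, did not pass. Signals of Fap lay near the lower quartiles of the arrays, where a low transcript could not be told from background. S100a4 had the largest signal of the 8, with means of 9.95 in wild-type and 10.01 in knockout arrays. It thus weighed most in the summed signal. Postn was higher in the same arrays in which most measured fibroblast markers were lower. Which cells gave the Postn difference was not tested. In bulk samples fewer cells of a type and less RNA per cell cannot be told apart.

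**Figure D5:**
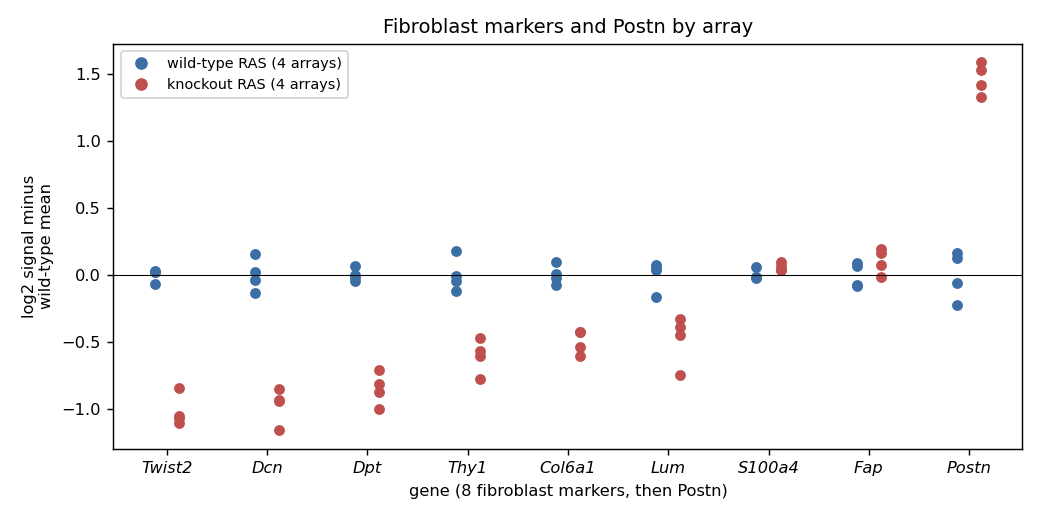
Log2 signal of 8 fibroblast markers and Postn in each array minus the wild-type mean of the gene, with 4 wild-type RAS arrays in blue and 4 knockout RAS arrays in red. For 6 markers all knockout arrays lie under the wild-type arrays, while for Postn they lie above.

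Keratinocyte markers were set out to check the labelled cell type. Of 21 listed, 10 were measured, and the only call in limma was the hemidesmosome collagen gene Col17a1, which fell by 0.31 ± 0.07 (SE). That is 10% called, against 8.9% over all genes. At an unadjusted p under 0.05 there were 1 higher and 2 lower. Krt5, the basal keratin gene, had 13.42 ± 0.03 and 13.29 ± 0.06 (SD, n = 4 per group), and Cdh1, the E-cadherin gene, 12.22 ± 0.08 and 12.35 ± 0.07. Krt15 was near the array medians at 4.63 and 4.74. The summed signal was 15.03 to 15.07 in wild-type and 14.97 to 15.06 in knockout arrays on the log2 scale.

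Markers of other cells that can make Ccn2, Postn or Adamts1 gave few calls. Limma called 33.3% of the smooth muscle and pericyte markers and 33.3% of the melanocyte markers, 1 gene each, against 8.9% over all genes. Of 3 smooth muscle and pericyte markers among 9, Mcam, the gene of an adhesion molecule, rose by 0.49 ± 0.06 (SE), while Tagln and Cnn1 did not pass. Their summed signal was 10.28 to 10.38 in wild-type and 10.22 to 10.46 in knockout arrays. Of 8 endothelial markers among 10, none was called by limma, 1 was lower at an unadjusted p under 0.05, and sums were 7.41 to 7.47 and 7.27 to 7.44, with Emcn and Vwf under the lower quartiles. Of 7 leukocyte markers among 9, none was called by limma, and 2 were lower at an unadjusted p under 0.05. Their sums were 7.69 to 7.89 and 7.62 to 7.71, with Itgam under the lower quartiles. Of 3 melanocyte markers among 7, Pmel fell by 0.28 ± 0.06, and all 3 were lower at an unadjusted p under 0.05, with sums of 11.46 to 11.53 and 11.09 to 11.39. The part of any of these cells in the differences of Ccn2, Postn and Adamts1 was not tested.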

How the data were processed

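Biotin-labelled total RNA of 8 keratinocyte cultures (Trizol, then column purification, per the labels' protocols) was measured on arrays. The authors deposited 1 value per probe set, read here as log2 signal because values ran from 1.57 to 13.9. How the authors summarised and normalized them, the genome build, scan dates and batches: not given in the sources used here. Of 11373 probe sets, 9374 had 1 symbol, 479 several and 1520 none in the platform annotation. Each of 9294 genes was represented by its single-symbol probe set of highest mean, and 9201 genes matched a RefSeq table (GRCm38.p6) by Entrez identifier.

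Knockout minus wild-type was fitted in R 4.3.3 (limma 3.58.1, functions lmFit and eBayes) with no covariate, adjusted by Benjamini-Hochberg over 9294 genes, threshold 0.05, and the functions were tested on simulated data. P-values measure the spread between the 4 labelled biological replicates of each genotype, and this number limits the precision. Differences between arrays of a genotype had standard deviations of 0.157 to 0.175 across probe sets, so none was a duplicate. Ccn2, Postn, Adamts1, the 9 lists and the 6 marker lists were chosen with earlier results of these data known. List counts leave out the 3 genes. Genes named are the 3 genes, all measured CCN and ADAMTS relatives, up to 5 called members of each other list, a short set of known targets where measured, called neighbours and the 5 nearest patterns, 49 genes with the called genes between Nfkbiz and Adamts1. Uncalled list members and marker genes named besides were chosen after their values were seen. Alternatives were repeated quantile normalization, median centring, a filter on the lowest 25% of genes, averaged probe sets, an intensity trend with a robust prior, array weights, the replicate number as a block and leaving out each array.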

Additional observations from a re-analysis of the deposited data

Results flagged for a closer look

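Within-group outliers were looked for in 98 groups of 4 arrays, 2 for each of the 49 genes named by rule, by Dixon's ratio, the gap of the extreme array to the nearest other over the range of the group. Chance puts about 5% of such groups past the critical value, and 3 passed. Ccn2 in knockout RAS replicate 4 was 12.312, against 12.446 to 12.462 in the other knockout arrays. Without that array the log2 fold change of Ccn2 was 0.90 in place of 0.86. Abcg2, one of the genes nearest to Ccn2 in pattern, was 10.141 in the same array against 10.18 to 10.185 in the others. Adamts15 in knockout RAS replicate 2 was 3.9827, against 3.8372 to 3.8614 in the other knockout arrays, all under the array medians.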

How the results depend on the processing

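Ccn2, Postn and Adamts1 kept their direction in all 15 alternatives, with log2 fold changes of 0.85 to 0.90, 1.39 to 1.52 and 0.63 to 0.71, each within the spread between replicates of the reported value. Leaving out 1 array gave 598 to 687 called genes, 288 to 350 higher and 305 to 352 lower, in place of 827, 415 and 412. An intensity trend with a robust prior gave 586 higher and 548 lower. With the lowest 25% of genes left out, 0 ADAMTS relatives were higher, 1 lectican or inhibitor gene, 1 TGF-beta gene, 2 SRF genes and 1 neighbour were lower. With arrays centred on their median, 0 ADAMTS relatives were lower. Repeated quantile normalization gave 1 TGF-beta gene lower and 4 SRF genes higher. The trend gave 0 ADAMTS relatives, 2 matricellular genes, 1 TGF-beta gene, 1 YAP gene, 2 SRF genes and 1 neighbour lower, and 4 SRF genes higher. The filter removes genes from the test, and the cause of the other shifts was not tested. Without 1 array, 0 to 1 ADAMTS relatives were lower, 1 to 2 SRF genes higher, 0 to 1 interleukin-4 pathway genes higher and 0 to 1 lower, and 0 to 1 neighbours higher. Deviations of arrays with the same replicate number had correlations across genes of 0.09, 0.00, 0.03 and -0.05 for numbers 1 to 4. Pairs with different numbers ran from -0.10 to 0.11. Whether arrays of the same number shared a preparation or batch cannot be told from these values. With the replicate number as a block, 325 genes were higher and 334 lower, and 0 ADAMTS relatives lower, 0 interleukin-4 pathway genes higher and 0 neighbours higher. The calls of Adamts7, Ajuba and Arg1 were not made under the block, at limma adjusted p of 0.0920, 0.0769 and 0.0629. No detection calls were used, which limits Adamts12, Adamts15, Adamts20, Adamtsl3, Papln, Has3 and Itgam, under the array medians. It also limits Ccn5, Adamts7, Adamts8 and Reck, near those medians, and the matricellular genes and markers described above as low. The same limit holds for neighbours in gene order with signals under the lower quartiles of the arrays.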
